A study of Homo sapiens with 12 samples.

Results

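The genes described here are 35 genes of the G2 phase and of mitosis in U87 cells, a human glioma cell line. They were taken as a list of gene symbols, chosen with earlier results of these data known. The list holds cyclins A and B, CDK1 and its activating phosphatases, mitotic kinases, the spindle checkpoint, centromere and spindle proteins, regulators and substrates of the anaphase-promoting complex, and FOXM1. The list leaves out the KIF family of mitotic kinesins, although CENPE, which it keeps, is itself a kinesin motor. All 35 were on the array, as 53 probes, and 51 of these probes passed the detection filter (detection p under 0.01 on at least 3 of the 12 arrays). They are 35 of the 10686 genes tested, and the brightest kept probe of each, which stands for the gene below, was detected on all 12 arrays. The 2 probes left out were 1 of 4 for BUB3, detected on 0 arrays, and 1 of 2 for MAD2L1, detected on 2 arrays and so just outside the filter.

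All cells were U87 cells transfected with a small interfering RNA, and 4 groups of 3 arrays each were compared. They were BCL3 siRNA with temozolomide (siBCL3 TMZ), BCL3 siRNA with the solvent DMSO (siBCL3 DMSO), control siRNA with temozolomide (siCtrl TMZ) and control siRNA with DMSO (siCtrl DMSO). Temozolomide, a DNA-alkylating drug used against glioma, was given at 100 uM for 24 h before RNA was taken; BCL3 is an IκB family protein that binds NF-κB subunits in the nucleus. The labels name 1 cell line and do not say how many siRNA sequences were used or whether the 3 arrays of a group came from separate cultures, and the p-values then describe only how these arrays vary, which may be technical variation. RNA came from whole cultures, so fewer cells in G2 or mitosis and less RNA per such cell cannot be told apart.

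Genes of this group are transcribed late in the cell cycle. Their promoters are held silent in resting or arrested cells by the DREAM complex, and are opened in G2 by MYBL2 with the MuvB core and by FOXM1. The CCAAT box, bound by NF-Y, and the cell cycle genes homology region (CHR, TTTGAA or TTCGAA), bound by the MuvB core, are the sequence elements best known for this control. CDK1 with cyclin B starts mitosis, aurora and polo kinases build the spindle, the spindle checkpoint holds anaphase back, and the anaphase-promoting complex then destroys cyclin B and securin.

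Promoter windows from RefSeq (GRCh38.p14, 250 bases before to 50 after the annotated start) matched 28 of the 35 genes; FOXM1, AURKA, BUB3, TTK, BIRC5, TPX2 and UBE2C were not matched. Searched on both strands, CCAAT was present in 23 of the 28 windows (82.1%), against 34.6% of all 35116 windows of the same length. The CHR letters TTTGAA were present in 18 windows (64.3%, against 15.2% of all windows) and TTCGAA in 1 (3.57%, against 1.45%). Both a CCAAT and a CHR match were present in 18 of 28 (64.3%, against 6.38% of all windows). In CDCA8 and MKI67 a CCAAT match and a CHR match shared letters, and in HMMR and PTTG1 a pair of CCAAT matches on opposite strands did. A match is a description of the letters in the window and not a measured binding site. Of the matched members, 6 are shown because the results turn on them. MKI67, NEK2 and CDK1 fell with BCL3 siRNA in both treatments, while ECT2, PLK1 and CCNB1 rose in at least 1 treatment. They lie at chr10:128126374-128126673, minus strand, chr1:211675572-211675871, minus strand, chr10:60778081-60778380, plus strand, chr3:172750476-172750775, plus strand, chr16:23678639-23678938, plus strand, and chr5:69166900-69167199, plus strand. Each is printed 5′ to 3′ on the gene's own strand, with the letters of CCAAT and CHR matches on either strand in capitals.
MKI67: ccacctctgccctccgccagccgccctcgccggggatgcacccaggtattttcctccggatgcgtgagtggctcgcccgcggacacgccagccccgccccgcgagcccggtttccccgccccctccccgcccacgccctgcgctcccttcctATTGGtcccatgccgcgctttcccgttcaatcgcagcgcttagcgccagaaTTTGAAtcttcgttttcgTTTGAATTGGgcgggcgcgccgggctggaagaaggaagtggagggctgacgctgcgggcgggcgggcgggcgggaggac
NEK2: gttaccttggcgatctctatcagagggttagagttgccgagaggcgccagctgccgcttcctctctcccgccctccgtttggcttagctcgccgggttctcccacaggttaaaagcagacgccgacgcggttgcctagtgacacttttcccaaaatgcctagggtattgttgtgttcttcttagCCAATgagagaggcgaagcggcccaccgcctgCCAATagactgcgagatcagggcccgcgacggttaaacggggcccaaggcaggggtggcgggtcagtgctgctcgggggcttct
CDK1: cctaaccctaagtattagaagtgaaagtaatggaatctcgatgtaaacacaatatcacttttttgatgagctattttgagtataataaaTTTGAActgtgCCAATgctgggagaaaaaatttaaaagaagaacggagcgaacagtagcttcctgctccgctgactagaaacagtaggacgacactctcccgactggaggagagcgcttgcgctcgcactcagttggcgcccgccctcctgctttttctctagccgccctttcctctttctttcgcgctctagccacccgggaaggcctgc
ECT2: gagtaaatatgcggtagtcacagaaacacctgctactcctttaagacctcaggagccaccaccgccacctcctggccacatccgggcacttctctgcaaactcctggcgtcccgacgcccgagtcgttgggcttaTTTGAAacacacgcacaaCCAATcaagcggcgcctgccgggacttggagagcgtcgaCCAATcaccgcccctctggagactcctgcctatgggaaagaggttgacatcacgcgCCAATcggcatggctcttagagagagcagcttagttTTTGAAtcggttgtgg
PLK1: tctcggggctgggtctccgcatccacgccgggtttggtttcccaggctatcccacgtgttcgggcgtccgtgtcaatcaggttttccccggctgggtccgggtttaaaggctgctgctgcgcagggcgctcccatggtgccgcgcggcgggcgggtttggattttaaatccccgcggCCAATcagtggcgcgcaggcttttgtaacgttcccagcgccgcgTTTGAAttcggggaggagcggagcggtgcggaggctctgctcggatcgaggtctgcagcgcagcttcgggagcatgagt
CCNB1: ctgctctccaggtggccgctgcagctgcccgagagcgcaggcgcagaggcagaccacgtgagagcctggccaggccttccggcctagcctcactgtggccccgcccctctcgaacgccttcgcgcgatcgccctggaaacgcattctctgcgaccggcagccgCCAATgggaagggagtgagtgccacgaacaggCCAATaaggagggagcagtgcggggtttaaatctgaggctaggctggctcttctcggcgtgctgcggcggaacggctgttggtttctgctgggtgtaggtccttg

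In these windows MKI67 held 2 CCAAT and 2 CHR matches, and ECT2 held 3 CCAAT and 2 CHR matches, while MKI67 fell with BCL3 siRNA and ECT2 rose. CDK1 and PLK1 each held 1 of both motifs. NEK2 and CCNB1 each held 2 CCAAT matches and no TTTGAA or TTCGAA, the only CHR letters searched. Of the matched members that fell with BCL3 siRNA under DMSO, 4 of 6 held both motifs, as did 2 of 2 that rose and 12 of 20 that were not called. Under TMZ, 9 of 12 that fell held both, as did 1 of 2 that rose and 8 of 14 that were not called.

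The siRNA target was lower in both knockdown groups. Values for single genes are log2 intensities after background correction and quantile normalization, which compare arrays for 1 probe and not 1 probe with another. BCL3 had 6.57, 6.52 and 6.54 on the siBCL3 TMZ arrays, against 7.26, 7.28 and 7.36 on the siCtrl TMZ arrays, a log2 fold change of -0.76 (adjusted p = 3.1e-06, SE 0.07). It had 6.41, 6.28 and 6.46 on the siBCL3 DMSO arrays, against 7.47, 7.39 and 7.25 on the siCtrl DMSO arrays, a log2 fold change of -0.98 (adjusted p = 3.04e-07, SE 0.07). All adjusted p-values are from limma, with Benjamini-Hochberg adjustment over the 10686 genes, and "rose" and "fell" are used for genes with an adjusted p under 0.05. Mean raw intensity per array was 242 to 283 in siBCL3 TMZ, 230 to 258 in siBCL3 DMSO, 261 to 263 in siCtrl TMZ and 266 to 318 in siCtrl DMSO, and 16381 to 17839 of 47320 probes were detected per array. Of the U87 and astroglial markers, VIM, NES, CD44 and TNC were detected on all 12 arrays and OLIG2 on 9, while GFAP, S100B, SOX2 and AQP4 were detected on none. Of 18 markers of other cell types 6 passed the filter and 9 were detected on none of the arrays. PTPRC, CD3E, CDH1, RBFOX3 and MBP were among the undetected. Those that passed were CD68 and SNAP25 on 12 arrays, EPCAM on 11, CD14 on 9, SYT1 on 6 and CD79A on 5.

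BCL3 siRNA against control siRNA was compared first under DMSO and then under TMZ, which asks how BCL3 siRNA bears on mitotic gene expression without and with drug. These 2 comparisons share no arrays. Whether a change with BCL3 siRNA came through BCL3 was not tested. With BCL3 siRNA, 10 of the 35 mitotic genes fell and 2 rose under DMSO, and 17 fell and 2 rose under TMZ. BIRC5, the survivin gene, and MKI67, the proliferation marker Ki-67, had the lowest fold changes on their brightest probes, close to -1 log2 unit in each treatment. Without background correction MKI67 gave -0.47 under DMSO, where NEK2 gave -0.53, and the further probe of BIRC5 gave -0.52 under DMSO and -0.34 under TMZ, where that of NEK2 gave -0.72 and -0.85. NEK2, CENPF, CDK1, FOXM1 and AURKA also fell in both, while ECT2, which activates RhoA for cytokinesis, rose in both. The 9 genes that fell in both treatments were CDK1, FOXM1, AURKA, NEK2, CENPF, BIRC5, TPX2, NUSAP1 and MKI67; they are 90% of those that fell under DMSO and 52.9% of those under TMZ. For all genes the shares that fell in the other treatment too were 76.8% and 76.6%.

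These counts stand against a wide response. An unadjusted p under 0.05 was reached by 17 members under DMSO (49.1% of all genes) and by 23 under TMZ (47% of all genes). Over all genes 40.8% were called under DMSO, 20.1% as fallen and 20.7% as risen, against 28.6% of members as fallen and 5.71% as risen. Under TMZ 38.8% of all genes were called, 20.2% as fallen and 18.6% as risen, against 48.6% of members as fallen and 5.71% as risen. These shares are a description with no test, for a list chosen with earlier results of these data known. The median log2 fold change over the 35 members was -0.09 under DMSO, against 0.01 over all genes, and -0.16 under TMZ, against 0 over all genes. Single members ran from -1.08 to 0.33 under DMSO and from -1.14 to 0.25 under TMZ. All siBCL3 arrays lay below all siCtrl arrays for 14 members under DMSO (24.4% of all genes) and for 23 under TMZ (25.4% of all genes). They lay above for 4 members under DMSO (25.7% of all genes) and for 2 under TMZ (24.5% of all genes). Of the 6 markers of other cell types that passed the filter, CD68, SYT1 and SNAP25 fell under DMSO and EPCAM, SYT1 and SNAP25 fell under TMZ. Their summed raw intensity (the 6 brightest kept probes) ran from 2420 to 2800 in siBCL3 TMZ, 2090 to 2390 in siBCL3 DMSO, 2640 to 2870 in siCtrl TMZ and 2940 to 3400 in siCtrl DMSO. The sum of the 5 glioma and astroglial markers that passed, of which VIM, NES and CD44 fell in both treatments, ran from 17500 to 21500 in siBCL3 TMZ, 17100 to 21200 in siBCL3 DMSO, 22200 to 23500 in siCtrl TMZ and 25400 to 29600 in siCtrl DMSO. The part of these markers and of the mean array intensity in the results was not tested.

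**Figure D1:**
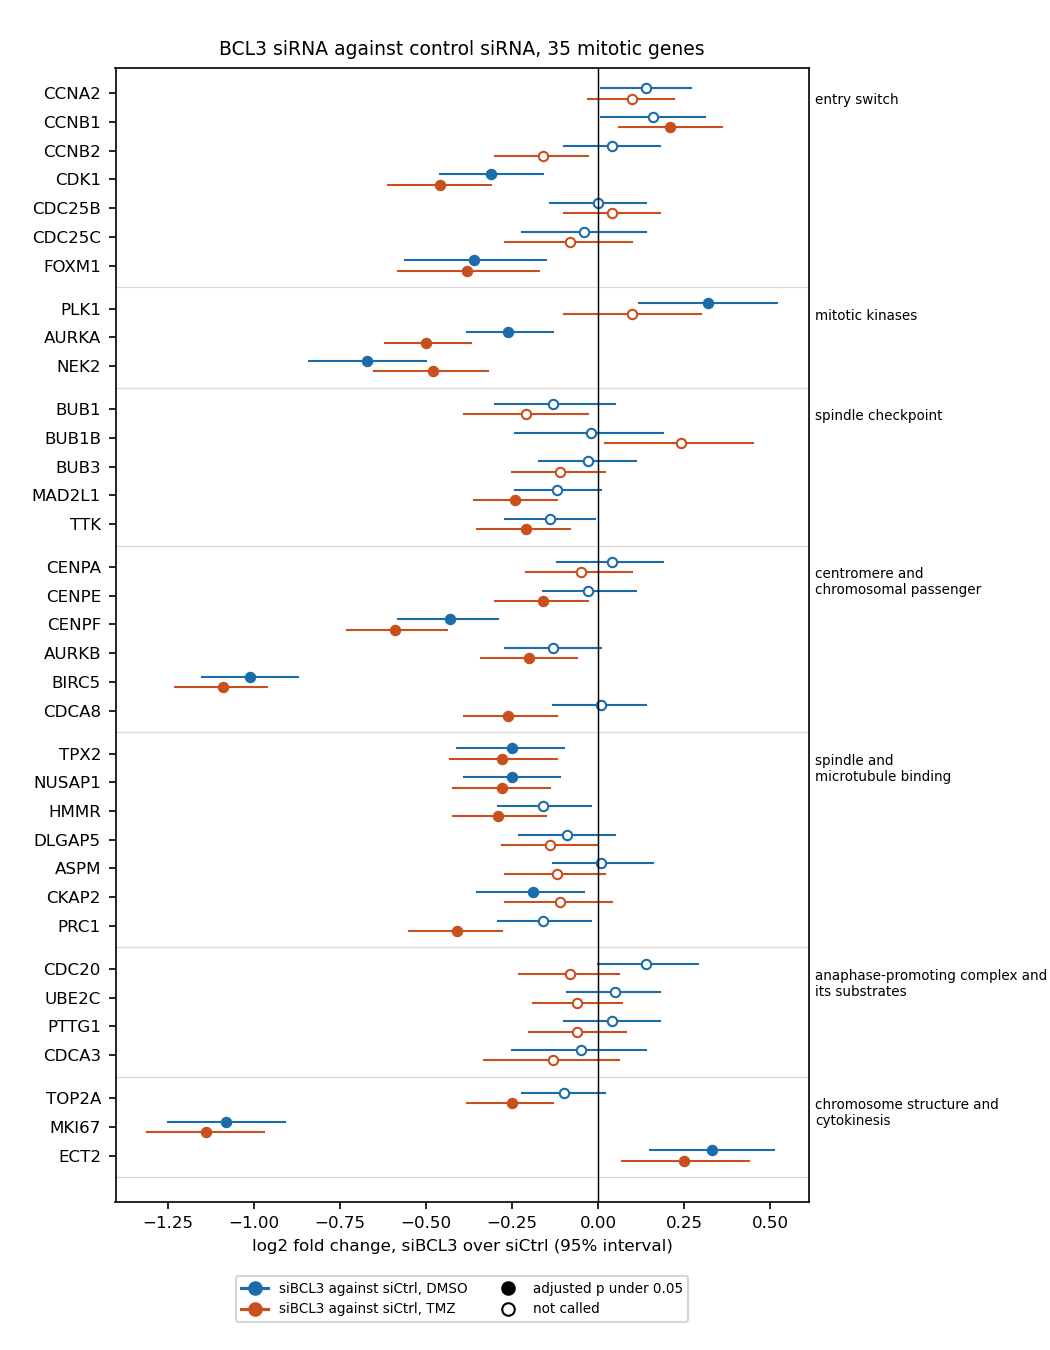
Log2 fold change of siBCL3 over siCtrl for each of the 35 genes (horizontal axis, log2 units), under DMSO (blue) and under TMZ (orange), with 95% intervals from limma and genes grouped by role. Filled points have an adjusted p under 0.05: 10 fell and 2 rose under DMSO, 17 fell and 2 rose under TMZ, with BIRC5 and MKI67 furthest left.

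Of the 7 genes that switch cells into mitosis, CDK1 and FOXM1 fell in both treatments. CDK1, the kinase that drives entry, had 9.17, 9.29 and 9.40 on the siBCL3 DMSO arrays, against 9.60, 9.58 and 9.60 on the siCtrl DMSO arrays. Under TMZ it had 9.43, 9.50 and 9.55 on the siBCL3 TMZ arrays, against 9.86, 10.01 and 10.00 on the siCtrl TMZ arrays. The siBCL3 arrays lay below every siCtrl array in each treatment, and the log2 fold changes were -0.31 (adjusted p = 0.00314, SE 0.07) under DMSO and -0.46 (adjusted p = 0.000176, SE 0.07) under TMZ. FOXM1, the transcription factor that activates G2 genes, had 7.69, 7.88 and 7.87 on the siBCL3 DMSO arrays, against 8.38, 8.01 and 8.12 on the siCtrl DMSO arrays. Under TMZ FOXM1 had 7.93, 7.78 and 8.01 on the siBCL3 TMZ arrays, against 8.30, 8.21 and 8.34 on the siCtrl TMZ arrays. Its groups did not overlap, although siCtrl DMSO array 1 stood above the other two, and its log2 fold changes were -0.36 (adjusted p = 0.00954, SE 0.10) and -0.38 (adjusted p = 0.00722, SE 0.10) in the same order.

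CCNB1, the cyclin B1 gene whose product binds CDK1, went the other way. It had 8.20, 8.08 and 8.15 on the siBCL3 TMZ arrays, against 8.00, 7.85 and 7.95 on the siCtrl TMZ arrays. The siBCL3 arrays were all higher, and CCNB1 rose with a log2 fold change of 0.21 (adjusted p = 0.0264, SE 0.07). Under DMSO, CCNB1 had 7.81, 8.01 and 7.85 on the siBCL3 DMSO arrays, against 7.79, 7.66 and 7.75 on the siCtrl DMSO arrays, again without overlap, with a log2 fold change of 0.16 (adjusted p = 0.0827, SE 0.07). The call under TMZ was lost without siBCL3 TMZ array 1 or 3 or siCtrl TMZ array 2 or 3 (adjusted p = 0.0558 to 0.107). CCNA2, CCNB2, CDC25B and CDC25C, the genes of cyclins A2 and B2 and of the phosphatases that activate CDK1, were called in neither treatment, with log2 fold changes from -0.04 (CDC25C) to 0.14 (CCNA2) under DMSO and from -0.16 (CCNB2) to 0.10 (CCNA2) under TMZ. CCNB2 under TMZ (adjusted p = 0.0586) passed in 6 alternatives.

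Of the 3 kinases that build the spindle and part the centrosomes, AURKA and NEK2 fell in both treatments. NEK2, which separates centrosomes, had 7.82, 7.69 and 7.89 on the siBCL3 DMSO arrays, against 8.54, 8.41 and 8.46 on the siCtrl DMSO arrays. With drug it had 8.17, 8.09 and 8.36 on the siBCL3 TMZ arrays, against 8.66, 8.74 and 8.68 on the siCtrl TMZ arrays. No siBCL3 array reached the lowest siCtrl array, and NEK2 fell by 0.67 (SE 0.08, adjusted p = 2.69e-05) under DMSO and by 0.48 (SE 0.08, adjusted p = 0.000335) under TMZ on the log2 scale. AURKA, the kinase of the spindle poles, had 10.66, 10.71 and 10.74 on the siBCL3 DMSO arrays, against 10.92, 10.95 and 11.01 on the siCtrl DMSO arrays. Under TMZ AURKA had 10.53, 10.65 and 10.68 on the siBCL3 TMZ arrays, against 11.16, 11.11 and 11.08 on the siCtrl TMZ arrays. The groups were apart in each treatment, with log2 fold changes of -0.26 (adjusted p = 0.00376, SE 0.06) and, under TMZ, -0.50 (adjusted p = 2.97e-05, SE 0.06).

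PLK1, the polo-like kinase that promotes mitotic entry and exit, differed from both. It had 7.28, 7.41 and 7.37 on the siBCL3 DMSO arrays, against 7.00, 7.00 and 7.12 on the siCtrl DMSO arrays. All siBCL3 DMSO arrays were higher, and PLK1 rose by 0.32 log2 units (SE 0.09, adjusted p = 0.0153). Under TMZ it had 7.15, 6.95 and 7.29 on the siBCL3 TMZ arrays, against 6.85, 7.13 and 7.11 on the siCtrl TMZ arrays; the groups overlapped and the log2 fold change was 0.10 (adjusted p = 0.418, SE 0.09). The call under DMSO was lost without siBCL3 DMSO array 2 (adjusted p = 0.0528) or siCtrl DMSO array 1 (adjusted p = 0.0513), and its log2 fold change was 0.01 (adjusted p = 0.964) after median scaling over all probes.

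**Figure D2:**
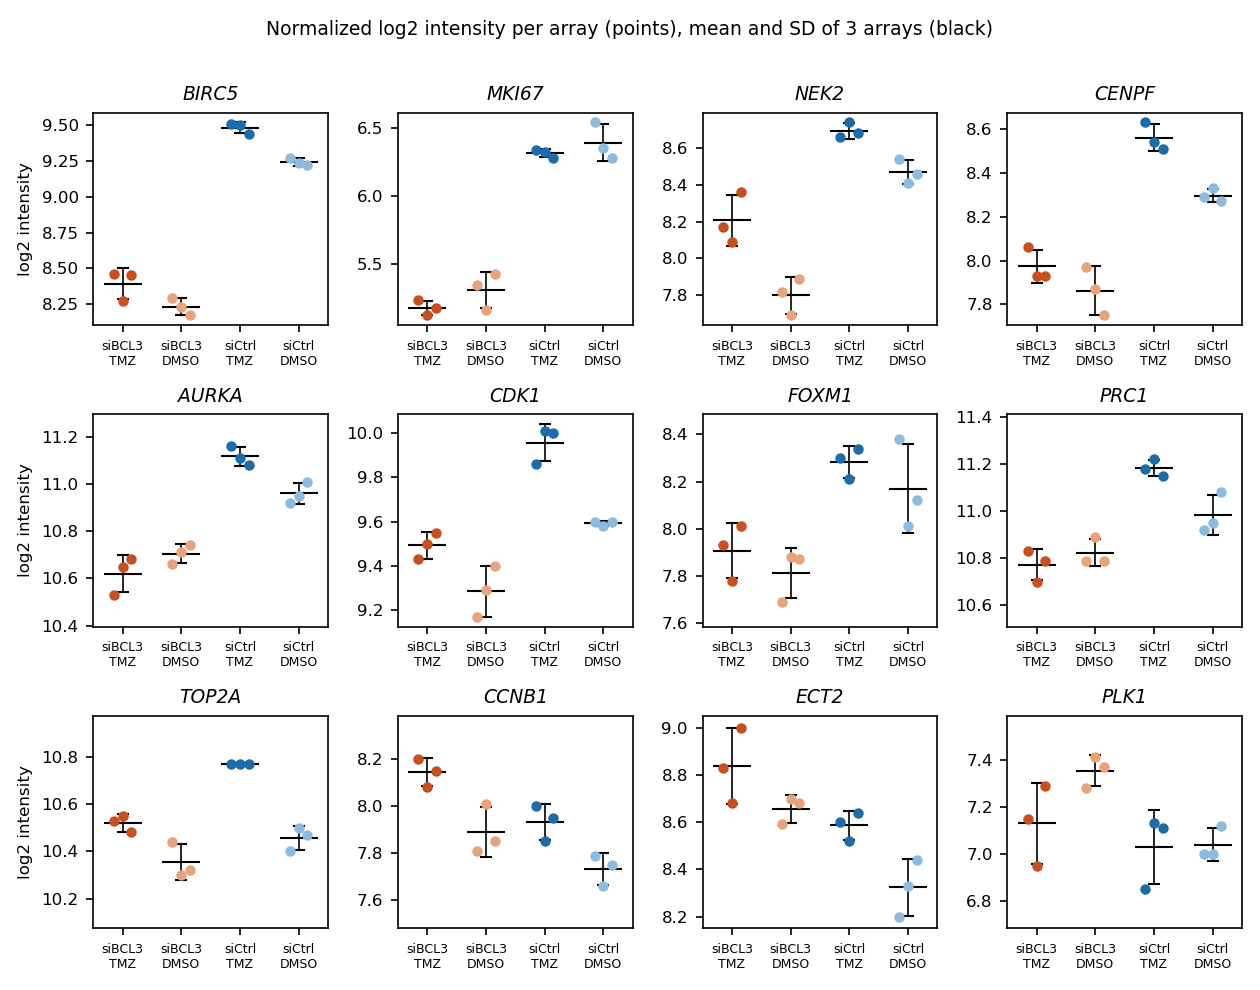
Normalized log2 intensity (vertical axis) of 12 mitotic genes on each of the 12 arrays, by group, with the mean and SD of 3 arrays in black. BIRC5, MKI67, NEK2, CENPF, AURKA, CDK1 and FOXM1 are lower on every siBCL3 array than on the siCtrl arrays of the same treatment, and ECT2 is higher.

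None of the 5 spindle checkpoint genes was called under DMSO by limma, where 1 of them, TTK, had an unadjusted p under 0.05, and MAD2L1 and TTK fell under TMZ. MAD2L1, whose product blocks CDC20 at unattached kinetochores, had 9.11, 9.27 and 9.19 on the siBCL3 TMZ arrays, against 9.43, 9.41 and 9.45 on the siCtrl TMZ arrays. All siBCL3 arrays were lower, with a log2 fold change of -0.24 (adjusted p = 0.00483, SE 0.06), and under DMSO the value was -0.12 (adjusted p = 0.12, SE 0.06). TTK, the MPS1 kinase that starts the checkpoint, had 7.85, 8.00 and 7.97 on the siBCL3 TMZ arrays, against 8.23, 8.10 and 8.13 on the siCtrl TMZ arrays. It too was lower on every siBCL3 array, with a log2 fold change of -0.21 (adjusted p = 0.0157, SE 0.06), against -0.14 (adjusted p = 0.0856, SE 0.06) under DMSO. The TTK call was lost without siBCL3 TMZ array 1 or siCtrl TMZ array 1 (adjusted p = 0.0668 and 0.0692, the lower and the higher of the pair). BUB1, BUB1B and BUB3 passed in neither treatment; their log2 fold changes under TMZ were -0.21 (adjusted p = 0.0575), 0.24 (adjusted p = 0.0766) and -0.11 (adjusted p = 0.178). BUB1 passed under TMZ in 9 alternatives (adjusted p = 0.0152 to 0.048) and BUB1B in 4 (adjusted p = 0.0339 to 0.0438), in opposite directions.

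Among 6 centromere and chromosomal passenger genes, 2 fell under DMSO and 5 under TMZ. BIRC5, whose product survivin carries aurora B to centromeres and inhibits apoptosis, had 8.29, 8.23 and 8.17 on the siBCL3 DMSO arrays, against 9.27, 9.24 and 9.22 on the siCtrl DMSO arrays. With drug BIRC5 had 8.46, 8.27 and 8.45 on the siBCL3 TMZ arrays, against 9.51, 9.50 and 9.44 on the siCtrl TMZ arrays. The 2 sets of arrays lay far apart, and BIRC5 was 2.02-fold lower under DMSO (log2 -1.01, SE 0.06, adjusted p = 1.36e-07) and 2.13-fold lower under TMZ (log2 -1.09, SE 0.06, adjusted p = 7.07e-08). CENPF, a kinetochore protein of G2 and mitosis, had 7.97, 7.87 and 7.75 on the siBCL3 DMSO arrays, against 8.29, 8.33 and 8.27 on the siCtrl DMSO arrays. Under TMZ CENPF had 8.06, 7.93 and 7.93 on the siBCL3 TMZ arrays, against 8.63, 8.54 and 8.51 on the siCtrl TMZ arrays. No array of 1 siRNA overlapped the other, with log2 fold changes of -0.43 (adjusted p = 0.000241, SE 0.07) and -0.59 (adjusted p = 2.26e-05, SE 0.07).

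CDCA8 and AURKB, whose products work with survivin in the passenger complex, fell under TMZ and were not called under DMSO. CDCA8, the borealin gene, had 8.50, 8.55 and 8.51 on the siBCL3 TMZ arrays, against 8.88, 8.65 and 8.79 on the siCtrl TMZ arrays. Its siBCL3 TMZ arrays were all lower, with a log2 fold change of -0.26 (adjusted p = 0.00492, SE 0.06), whereas under DMSO it was 0.01 (adjusted p = 0.944, SE 0.06). AURKB, the aurora kinase of the complex, had 9.06, 9.16 and 9.08 on the siBCL3 TMZ arrays, against 9.34, 9.29 and 9.28 on the siCtrl TMZ arrays. It was lower on every siBCL3 TMZ array by a log2 fold change of -0.20 (adjusted p = 0.0261, SE 0.07), and under DMSO it was -0.13 (adjusted p = 0.124, SE 0.07). The AURKB call was lost without siBCL3 TMZ array 1 or 3 or siCtrl TMZ array 1 or 2 (adjusted p = 0.0576 to 0.0809). CENPE, the kinesin motor that moves chromosomes to the spindle equator, had 8.08, 8.14 and 8.00 on the siBCL3 TMZ arrays, against 8.24, 8.21 and 8.26 on the siCtrl TMZ arrays, a log2 fold change of -0.16 (adjusted p = 0.049, SE 0.06). That call was the least firm of those under TMZ. It was lost in 16 of 28 alternatives, among them 8 of the 12 that leave out 1 array (siBCL3 TMZ array 1 or 3, siBCL3 DMSO array 1, any siCtrl TMZ array, siCtrl DMSO array 2 or 3; adjusted p = 0.0563 to 0.165). The further CENPE probe gave -0.01 under TMZ (adjusted p = 0.913), so the fall was seen on 1 of 2 probes. CENPA, the centromeric histone H3 variant, had log2 fold changes of 0.04 and -0.05 and was not called.

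All 7 spindle and microtubule-binding genes had a log2 fold change below 0 under TMZ, from -0.41 (PRC1) to -0.11 (CKAP2), and 4 of them fell. Below 0 in that comparison were 29 of the 35 members, and 50.2% of all genes. PRC1, which bundles the microtubules of the central spindle, had 10.83, 10.70 and 10.79 on the siBCL3 TMZ arrays, against 11.18, 11.22 and 11.15 on the siCtrl TMZ arrays. The siBCL3 TMZ arrays were all lower and the log2 fold change was -0.41 (adjusted p = 0.000212, SE 0.06). Under DMSO it had 10.79, 10.89 and 10.79 on the siBCL3 DMSO arrays, against 10.92, 10.95 and 11.08 on the siCtrl DMSO arrays, lower without overlap, with a log2 fold change of -0.16 (adjusted p = 0.0631, SE 0.06) that passed in 6 alternatives. TPX2, which activates aurora A on the spindle, had 9.24, 9.18 and 9.16 on the siBCL3 DMSO arrays, against 9.56, 9.48 and 9.29 on the siCtrl DMSO arrays. Under TMZ TPX2 had 9.17, 9.29 and 9.13 on the siBCL3 TMZ arrays, against 9.47, 9.51 and 9.46 on the siCtrl TMZ arrays. It fell in both, with log2 fold changes of -0.25 (adjusted p = 0.0141, SE 0.07) and -0.28 (adjusted p = 0.00845, SE 0.07); without siCtrl DMSO array 1 the DMSO call was lost (adjusted p = 0.0657).

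NUSAP1, a protein that bundles spindle microtubules, had 9.37, 9.52 and 9.55 on the siBCL3 DMSO arrays, against 9.67, 9.81 and 9.72 on the siCtrl DMSO arrays. Under TMZ NUSAP1 had 9.66, 9.67 and 9.71 on the siBCL3 TMZ arrays, against 9.89, 9.99 and 10.01 on the siCtrl TMZ arrays. In each treatment the siBCL3 arrays were lower than the siCtrl arrays, with log2 fold changes of -0.25 (adjusted p = 0.0091, SE 0.07) and -0.28 (adjusted p = 0.00453, SE 0.07). HMMR, which helps to assemble the spindle, had 9.69, 9.81 and 9.76 on the siBCL3 TMZ arrays, against 10.07, 10.04 and 10.01 on the siCtrl TMZ arrays. It was lower on every siBCL3 TMZ array, with a log2 fold change of -0.29 (adjusted p = 0.0029, SE 0.06), and under DMSO it was -0.16 (adjusted p = 0.0583, SE 0.06), which passed in 9 alternatives. CKAP2, a microtubule-stabilizing protein, had 7.91, 7.76 and 7.81 on the siBCL3 DMSO arrays, against 8.05, 8.03 and 7.99 on the siCtrl DMSO arrays, a log2 fold change of -0.19 (adjusted p = 0.0426, SE 0.07). The other probe of CKAP2 went the opposite way, with a rise of 0.35 (adjusted p = 0.00631), and the mean of both probes gave 0.08. The call was also lost in 9 of the 12 fits that leave out 1 array (all but those without siBCL3 TMZ array 1 or 2 or siBCL3 DMSO array 1; adjusted p = 0.0514 to 0.141). DLGAP5 and ASPM were not called, with -0.09 and 0.01 under DMSO and -0.14 and -0.12 under TMZ.

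The 4 genes of the anaphase-promoting complex and its substrates were called in neither treatment by limma, and none of them had an unadjusted p under 0.05 in either. CDC20, the activator of the complex, UBE2C, its ubiquitin-conjugating enzyme, PTTG1, the securin gene, and CDCA3, a substrate, had log2 fold changes from -0.05 to 0.14 under DMSO and from -0.13 to -0.06 under TMZ. The 95% intervals of the log2 fold changes ran from -0.25 (CDCA3) to 0.29 (CDC20) under DMSO and from -0.33 (CDCA3) to 0.08 (PTTG1) under TMZ. Under DMSO CDC20 passed in 3 alternatives (adjusted p = 0.00789 to 0.0398), and UBE2C, PTTG1 and CDCA3 passed in 1 each. Under TMZ PTTG1 passed in 1, with averaged probes (adjusted p = 0.0373).

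Of the 3 genes of chromosome structure and cytokinesis, MKI67 fell and ECT2 rose in both treatments. MKI67, which coats mitotic chromosomes, had 5.34, 5.16 and 5.42 on the siBCL3 DMSO arrays, against 6.54, 6.35 and 6.28 on the siCtrl DMSO arrays. Under TMZ MKI67 had 5.23, 5.12 and 5.17 on the siBCL3 TMZ arrays, against 6.34, 6.32 and 6.28 on the siCtrl TMZ arrays. The 2 siRNAs were apart by more than the spread within them, and MKI67 was 2.11-fold lower under DMSO (log2 -1.08, SE 0.08, adjusted p = 4.8e-07) and 2.2-fold lower under TMZ (log2 -1.14, SE 0.08, adjusted p = 3.21e-07). Its probe was dim, with raw intensities of 104.7, 111.1 and 109.5 in siBCL3 TMZ, 109.7, 100.7 and 112.1 in siBCL3 DMSO, 154.8, 155.5 and 154.9 in siCtrl TMZ and 185.1, 183.3 and 152.7 in siCtrl DMSO. The size of the fall moved with the background step, to -0.47 under DMSO and -0.48 under TMZ without background correction, while the call was kept in all 28 alternatives of each comparison.

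ECT2 had 8.59, 8.70 and 8.68 on the siBCL3 DMSO arrays, against 8.20, 8.33 and 8.44 on the siCtrl DMSO arrays. Under TMZ it had 8.83, 8.68 and 9.00 on the siBCL3 TMZ arrays, against 8.60, 8.52 and 8.64 on the siCtrl TMZ arrays. All siBCL3 arrays were higher than the siCtrl arrays of the same treatment, with log2 fold changes of 0.33 (adjusted p = 0.00741, SE 0.08) and 0.25 (adjusted p = 0.0296, SE 0.08). The TMZ call was lost without siBCL3 TMZ array 1 or 3 or siCtrl TMZ array 1 or 2 (adjusted p = 0.0595 to 0.128), and median scaling over all probes gave 0.07 (adjusted p = 0.665) under DMSO. TOP2A, the topoisomerase that untangles sister chromatids, had 10.53, 10.55 and 10.48 on the siBCL3 TMZ arrays, against 10.77, 10.77 and 10.77 on the siCtrl TMZ arrays. It fell under TMZ, without overlap, by a log2 fold change of -0.25 (adjusted p = 0.00365, SE 0.06), and under DMSO it was -0.10 (adjusted p = 0.183, SE 0.06).

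In all, CDK1, FOXM1, AURKA, NEK2, CENPF, BIRC5 and MKI67 passed in both treatments in each of the 28 alternatives run. NUSAP1 under DMSO and PRC1 under TMZ also passed in all 28. Scaling each array to the median of all probes moved the median of all genes to -0.21 under DMSO, and 21 members were then called as fallen and 0 as risen. Under TMZ, where the median moved to -0.02, the counts were 8 and 0. Over all 10686 genes that scaling called 4184 as fallen and 340 as risen under DMSO, and 1708 and 1023 under TMZ. The TMZ calls lost by it were those of CCNB1, MAD2L1, TTK, CENPE, AURKB, CDCA8, TPX2, NUSAP1, HMMR, TOP2A and ECT2. Scaling to the median of the kept probes, chosen after seeing the data, gave 9 fallen and 6 risen under DMSO and 11 fallen and 3 risen under TMZ. Over all genes it gave 1696 fallen and 3160 risen under DMSO, and 1759 and 2548 under TMZ.

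A further kept probe, 16 in all, was present for 15 of the genes and gave the same sign as the brightest in 10 of 16 cases under DMSO and 14 of 16 under TMZ. In each treatment 6 pairs were both called in the same direction and 0 in opposite directions, in a fit over all 18105 kept probes, where the brightest CKAP2 probe was not called (adjusted p = 0.0565). For NEK2 the further probe fell by 0.72 under DMSO (adjusted p = 0.000416) and by 0.85 under TMZ (adjusted p = 0.000125), and for FOXM1 by 0.56 (adjusted p = 5.21e-05) and 0.43 (adjusted p = 0.000379). AURKA gave -0.24 (adjusted p = 0.00556) and -0.49 (adjusted p = 3.6e-05) on its further probe, close to the values above. The falls of BIRC5 were smaller on its further probe at -0.52 (adjusted p = 0.000221) and -0.34 (adjusted p = 0.00391). For HMMR only 1 of its 2 probes fell under TMZ, since the other gave -0.04 (adjusted p = 0.726), and for CDC25C only the further probe did, at -0.35 (adjusted p = 0.02). The probes of 1 gene can report different transcripts, and which ones was not tested.

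**Figure D3:**
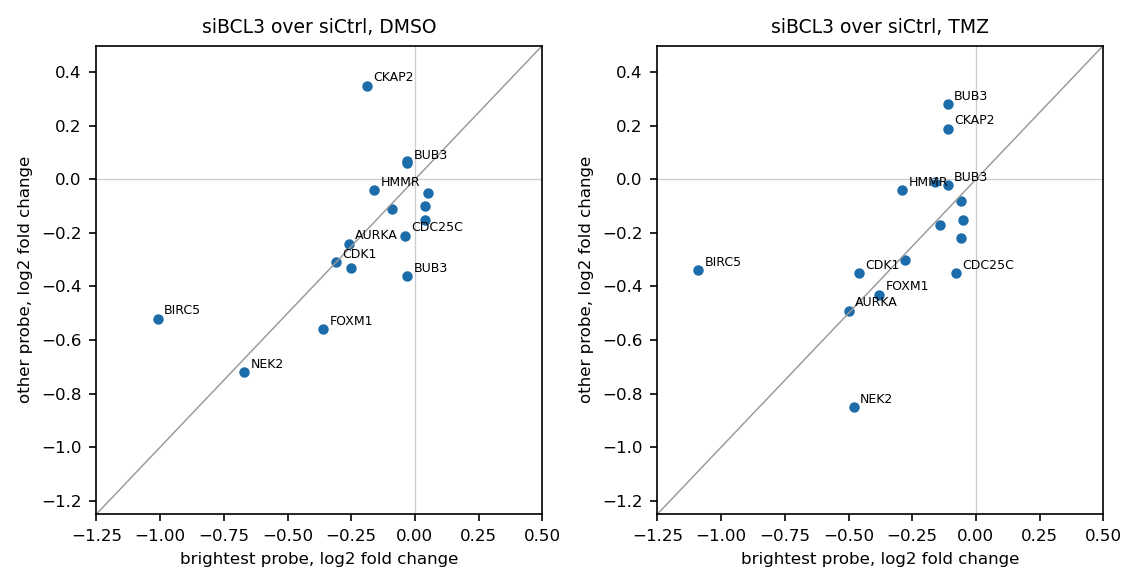
Log2 fold change of siBCL3 over siCtrl on the brightest probe (horizontal axis) against that on each further kept probe of the same gene (vertical axis), for 16 further probes of 15 genes, under DMSO (left) and TMZ (right). AURKA and CDK1 lie near the line of equal change, BIRC5 lies above it, NEK2 lies below it under TMZ, and CKAP2 is below 0 on 1 probe and above 0 on the other.

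Temozolomide was compared with DMSO for each siRNA, which asks how 24 h of drug bears on the same genes. With control siRNA, CDK1 and TOP2A rose and 0 members fell; with BCL3 siRNA, NEK2 rose and 0 members fell. In these comparisons 0.861% of all genes were called with control siRNA (0.468% as risen, 0.393% as fallen) and 1.06% with BCL3 siRNA (0.599% as risen, 0.459% as fallen), where 5.71% and 2.86% of members rose. Beside the counts of 0, limma gave an unadjusted p under 0.05 to 16 members with control siRNA and to 12 with BCL3 siRNA (15.3% and 15.1% of all genes), in either direction.

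CDK1 had 9.86, 10.01 and 10.00 on the siCtrl TMZ arrays, against 9.60, 9.58 and 9.60 on the siCtrl DMSO arrays. The TMZ arrays were all higher, and CDK1 rose by 0.36 log2 units (SE 0.07, adjusted p = 0.0246); with BCL3 siRNA the TMZ arrays were again all higher, with a log2 fold change of 0.21 (adjusted p = 0.173, SE 0.07). TOP2A had 10.77, 10.77 and 10.77 on the siCtrl TMZ arrays, against 10.40, 10.50 and 10.47 on the siCtrl DMSO arrays. It rose without overlap by 0.32 (SE 0.06, adjusted p = 0.0197), and with BCL3 siRNA the value was 0.16 (adjusted p = 0.203, SE 0.06). Both calls were lost in fits that left out 1 array, where the log2 fold changes moved little. In those fits TOP2A gave 0.29 to 0.34 and CDK1 gave 0.34 to 0.37. The TOP2A call was lost without any 1 of the 6 arrays compared (adjusted p = 0.0504 to 0.0984), and the CDK1 call without any of these but siCtrl TMZ array 1 (adjusted p = 0.0713 to 0.122). Median scaling over all probes ended both, while 4 to 8 members rose under other choices of offset, background, array weights or moderation. Calls over all genes grew under those choices too, to 139 to 234 risen of 10686, against 50 in the main fit.

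NEK2 had 8.17, 8.09 and 8.36 on the siBCL3 TMZ arrays, against 7.82, 7.69 and 7.89 on the siBCL3 DMSO arrays. The TMZ arrays were all higher and NEK2 rose by 0.41 (SE 0.08, adjusted p = 0.0289); with control siRNA the log2 fold change was 0.22 (adjusted p = 0.202, SE 0.08). The call was lost without siBCL3 TMZ array 1 or 3 or siBCL3 DMSO array 1 or 2 (adjusted p = 0.0667 to 0.0982). The further NEK2 probe gave -0.14 in the same comparison, and the mean of both probes gave 0.13 (adjusted p = 0.301), so the rise was seen on 1 of 2 probes.

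The members' shifts with TMZ were small. With control siRNA 31 of 35 had a log2 fold change above 0, against 53.7% of all genes, and their median was 0.14, against 0.01 over all genes. All TMZ arrays lay above all DMSO arrays for 20 members (13% of all genes) and below for 0 (9.81% of all genes). With BCL3 siRNA 24 were above 0 (50.7% of all genes), with a median of 0.05, against 0 over all genes; the TMZ arrays lay above for 6 members (9.69% of all genes) and below for MAD2L1 and CDCA8 (9.79% of all genes). The largest values with control siRNA after CDK1 and TOP2A were those of CENPF at 0.27 (adjusted p = 0.0909), ECT2 at 0.26 (adjusted p = 0.172), CDC25C at 0.25 (adjusted p = 0.19) and BIRC5 at 0.24 (adjusted p = 0.0987). MKI67, in contrast to these, had -0.07 with control siRNA and -0.13 with BCL3 siRNA, and was called with neither.

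**Figure D4:**
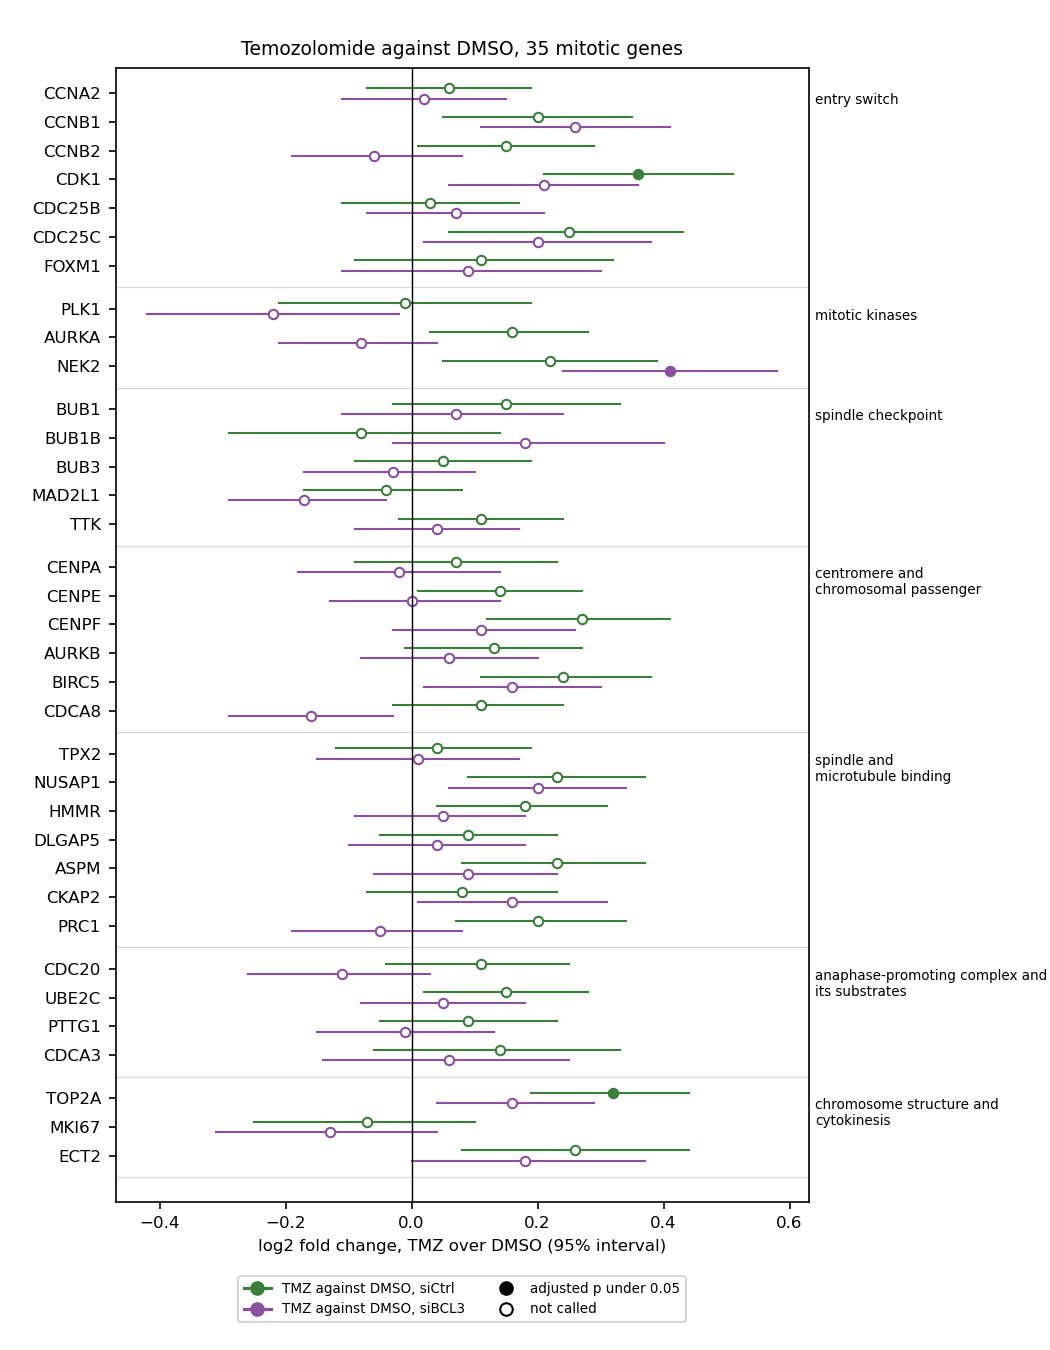
Log2 fold change of TMZ over DMSO for each of the 35 genes (horizontal axis, log2 units), with control siRNA (green) and BCL3 siRNA (purple), with 95% intervals from limma. Points for control siRNA lie above 0 for 31 genes, and the filled points are CDK1 and TOP2A with control siRNA and NEK2 with BCL3 siRNA.

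Averaged over both siRNAs, TMZ against DMSO rests on 6 arrays a side, and 8 members rose and 0 fell, where 4.84% of all genes were called (2.71% as risen, 2.12% as fallen). An unadjusted p under 0.05 was given by limma to 14 members and to 21.7% of all genes. The 8 were CDK1 at 0.29 (adjusted p = 0.00596, SE 0.05), NEK2 at 0.31 (adjusted p = 0.00755), TOP2A at 0.24 (adjusted p = 0.00596), CCNB1 at 0.23 (adjusted p = 0.0218), NUSAP1 at 0.22 (adjusted p = 0.0218), BIRC5 at 0.20 (adjusted p = 0.0261), CENPF at 0.19 (adjusted p = 0.0406) and CDC25C at 0.22 (adjusted p = 0.0485). CDK1, NEK2 and TOP2A kept their calls whichever array was left out, but NEK2 gave 0.12 (adjusted p = 0.118) when its probes were averaged, since its further probe gave -0.08 (adjusted p = 0.651). In the fit over all kept probes CDK1, NUSAP1 and BIRC5 were likewise called on the brightest probe and not on the further one, which gave 0.28 (adjusted p = 0.0751) for CDK1, 0.24 (adjusted p = 0.108) for NUSAP1 and 0.16 (adjusted p = 0.137) for BIRC5. For CENPE only the further probe was called in that fit, at 0.23 (adjusted p = 0.0246), while the brightest gave 0.07 (adjusted p = 0.407). CCNB1 had 8.20, 8.08 and 8.15 in siBCL3 TMZ, against 7.81, 8.01 and 7.85 in siBCL3 DMSO. It had 8.00, 7.85 and 7.95 in siCtrl TMZ, against 7.79, 7.66 and 7.75 in siCtrl DMSO, so that it was higher with TMZ for each siRNA. CDC25C had 6.68, 6.81 and 6.74 in siBCL3 TMZ, against 6.36, 6.58 and 6.68 in siBCL3 DMSO. It had 6.91, 6.83 and 6.74 in siCtrl TMZ, against 6.49, 6.59 and 6.66 in siCtrl DMSO. The TMZ arrays were higher, except that siBCL3 DMSO array 3 reached the lowest siBCL3 TMZ array.

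The other calls of the averaged comparison were lost in some fits that left out 1 array, where the log2 fold changes moved little. In those fits they were 0.18 to 0.25 for CDC25C, 0.16 to 0.20 for CENPF and 0.18 to 0.21 for BIRC5. They were 0.21 for CCNB1 and 0.20 to 0.21 for NUSAP1. The call of CDC25C was lost without any array but siBCL3 DMSO array 3 (adjusted p = 0.0525 to 0.117). That of CENPF was lost without any array but siBCL3 TMZ array 2 and siBCL3 DMSO array 1 (adjusted p = 0.0554 to 0.099). That of BIRC5 was lost without siBCL3 TMZ array 1 or 3, siBCL3 DMSO array 2 or 3, siCtrl TMZ array 1 or 2, or siCtrl DMSO array 1 or 2 (adjusted p = 0.0503 to 0.0657). That of CCNB1 was lost without siBCL3 TMZ array 1, siCtrl TMZ array 1 or siCtrl DMSO array 2 (adjusted p = 0.0527 to 0.0614), and that of NUSAP1 without siCtrl TMZ array 2 or 3 or siCtrl DMSO array 1 (adjusted p = 0.0501 to 0.0586). ECT2 lay just outside the threshold at 0.22 (adjusted p = 0.0522) and passed it in 10 alternatives (adjusted p = 0.00479 to 0.0491).

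The interaction, the effect of TMZ with BCL3 siRNA minus that with control siRNA, was called for 0 of 35 members and for 0% of all genes by limma. Among members 5 had an unadjusted p under 0.05, where 6.72% of all genes did: CDCA8 at -0.26 (adjusted p = 0.65), PRC1 at -0.26, AURKA at -0.24, CDC20 at -0.22 and CCNB2 at -0.20. Of the 35 values 30 were below 0, against 52.9% of all genes, and the median was -0.08, against -0.01 over all genes. Scaling to the median of all probes turned that sign, to 0.15 for the members and 0.20 for all genes. The larger number of members that fell under TMZ than under DMSO, and the calls of MAD2L1, TTK, CENPE, AURKB, CDCA8, HMMR, PRC1 and TOP2A under TMZ alone, are therefore not shown to differ between the treatments. The interaction uses all 12 arrays, and the TMZ comparisons share arrays with the knockdown comparisons: a high siCtrl TMZ array both raises a TMZ effect with control siRNA and lowers a knockdown effect under TMZ.

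**Figure D5:**
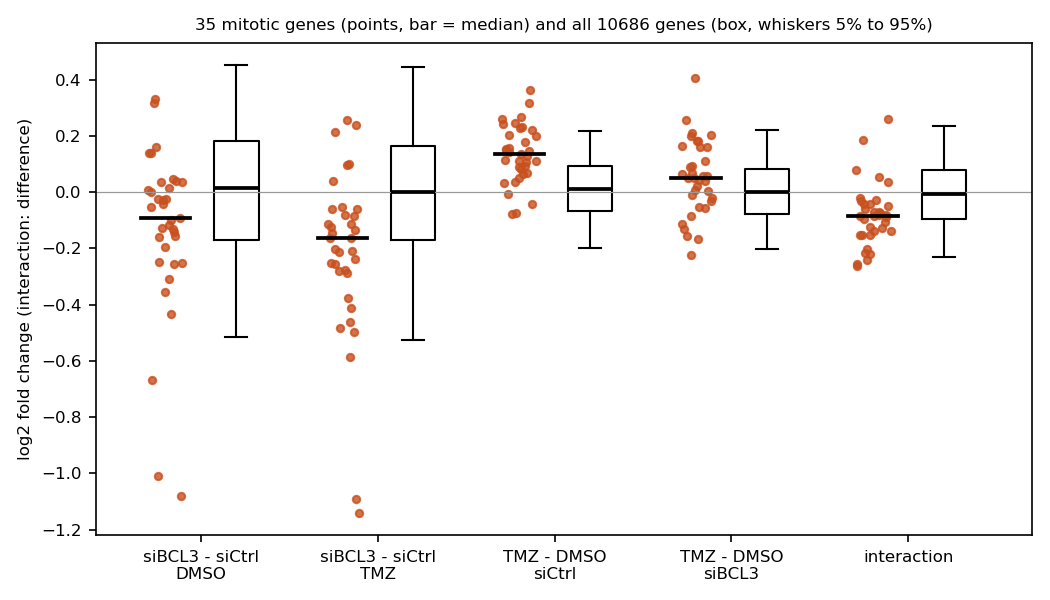
Log2 fold change of the 35 mitotic genes (orange points, bar at their median) and of all 10686 genes (box with median, quartiles and whiskers from 5% to 95%) in the knockdown comparisons, the TMZ comparisons and the interaction (vertical axis, log2 units). The members' medians are -0.09 and -0.16 with BCL3 siRNA under DMSO and TMZ, 0.14 and 0.05 with TMZ for control and BCL3 siRNA, and -0.08 for the interaction.

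The 13 members called in no comparison were CCNA2, CCNB2, CDC25B, BUB1, BUB1B, BUB3, CENPA, DLGAP5, ASPM, CDC20, UBE2C, PTTG1 and CDCA3. For BUB3 and PTTG1 a further probe was called. The other BUB3 probes gave -0.36 (adjusted p = 0.00389) and 0.06 (adjusted p = 0.707) under DMSO, and a further PTTG1 probe gave -0.22 (adjusted p = 0.0118) under TMZ.

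Other genes of the same pathways were read from pathway lists written from general knowledge, in the same fit. For each list, the shares to set beside its counts with BCL3 siRNA are those over all genes. They were 20.1% fallen and 20.7% risen under DMSO, and 20.2% fallen and 18.6% risen under TMZ. The counts of the lists are a description with no test. Of 11 mitotic kinesins tested, 5 fell under DMSO and 6 under TMZ with BCL3 siRNA and 0 rose, with medians of -0.15 and -0.23. KIF20A, needed for cytokinesis, had 8.20, 8.35 and 8.27 on the siBCL3 TMZ arrays, against 9.47, 9.56 and 9.52 on the siCtrl TMZ arrays, a log2 fold change of -1.24 (adjusted p = 5.85e-08, SE 0.07). All siBCL3 arrays were lower, and under DMSO the value was -1.13 (adjusted p = 1.34e-07). KIF11, which pushes spindle poles apart, fell by 0.74 and 0.73 under DMSO and TMZ (adjusted p = 8.76e-06 and 9.95e-06). Of 37 other kinetochore and centromere genes, 10 fell and 2 rose under DMSO, and 11 fell and 3 rose under TMZ. CENPM gave -0.55 and -0.57 (adjusted p = 1.42e-05 and 1.09e-05), HJURP, the chaperone that loads CENPA, gave -0.41 and -0.62 (adjusted p = 0.000148 and 4.95e-06), and NUF2 of the NDC80 complex rose by 0.46 and 0.33 (adjusted p = 0.00817 and 0.046).

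Of 20 further cytokinesis and spindle genes, 4 fell under DMSO and 10 under TMZ and 0 rose. RACGAP1, the partner of ECT2 at the central spindle, had 8.26, 8.30 and 8.13 on the siBCL3 TMZ arrays, against 9.27, 9.29 and 9.26 on the siCtrl TMZ arrays. It had 8.35, 8.23 and 8.19 on the siBCL3 DMSO arrays, against 9.26, 9.21 and 9.16 on the siCtrl DMSO arrays. It fell, without overlap, by 1.04 under TMZ (SE 0.06, adjusted p = 1.09e-07) and 0.95 under DMSO (SE 0.06, adjusted p = 2.04e-07), opposite to ECT2. STMN1, which destabilizes microtubules, fell by 0.33 under DMSO (adjusted p = 0.0035) and 0.44 under TMZ (adjusted p = 0.000509). Among 16 condensin, cohesin and separase genes, 1 fell and 2 rose under DMSO and 5 fell and 2 rose under TMZ; the condensin subunit NCAPG2 gave -0.56 and -0.48 (adjusted p = 3.53e-05 and 0.000109), and STAG2, a cohesin subunit, 0.40 and 0.24 (adjusted p = 0.0015 and 0.0309). Of 15 genes of the anaphase-promoting complex and its regulators, 3 fell and 4 rose under DMSO and 2 fell and 2 rose under TMZ. Over all genes 20.1% fell and 20.7% rose under DMSO, and 20.2% fell and 18.6% rose under TMZ. FBXO5, the inhibitor EMI1, gave -0.44 and -0.41 (adjusted p = 0.0019 and 0.00298), and the subunit CDC23 0.29 and 0.31 (adjusted p = 0.00145 and 0.00105).

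Of 14 genes of the G2 checkpoint and arrest, 5 fell and 6 rose with BCL3 siRNA in each treatment. CDKN1A, whose product p21 inhibits cyclin-dependent kinases, had 12.40, 12.39 and 12.35 on the siBCL3 TMZ arrays, against 11.97, 11.90 and 11.94 on the siCtrl TMZ arrays. It had 11.38, 11.42 and 11.48 on the siBCL3 DMSO arrays, against 10.92, 10.88 and 10.94 on the siCtrl DMSO arrays. It was highest in siBCL3 TMZ and lowest in siCtrl DMSO, without overlap between any groups, and rose by 0.44 and 0.51 with BCL3 siRNA under TMZ and DMSO (adjusted p = 3.23e-05 and 9.44e-06). With TMZ it rose by 0.95 after BCL3 siRNA and 1.02 after control siRNA (adjusted p = 1.72e-06 and 3.66e-07). PPM1D, the phosphatase WIP1 that ends the checkpoint, rose by 0.73 and 0.79 with BCL3 siRNA (adjusted p = 1.48e-05 and 7.22e-06). CDC25A, a phosphatase that activates cyclin-dependent kinases, fell by 1.21 and 1.24 (adjusted p = 6.79e-08 and 5.32e-08), and PKMYT1, which inhibits CDK1, by 0.78 and 0.53 (adjusted p = 1.65e-05 and 0.00035), each under DMSO and TMZ in that order. Apart from CDKN1A and PPM1D, the only gene of the pathway lists called with TMZ and control siRNA was OIP5, a protein that helps to load CENPA, at 0.33 (adjusted p = 0.0293, SE 0.06).

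Of 22 DREAM, MuvB and cell cycle promoter factors, 5 fell and 2 rose under DMSO and 6 fell and 4 rose under TMZ. The shares over all genes were 20.1% fallen and 20.7% risen under DMSO, and 20.2% fallen and 18.6% risen under TMZ. E2F7, a repressor that lacks a pocket-protein partner, had 9.47, 9.54 and 9.38 on the siBCL3 TMZ arrays, against 8.84, 8.93 and 8.82 on the siCtrl TMZ arrays. Its siBCL3 arrays were all higher, with log2 fold changes of 0.60 under DMSO and 0.60 under TMZ (adjusted p = 1.09e-05 and 1.17e-05). E2F4, an E2F of the DREAM complex but not the only E2F that can serve in it, rose by 0.40 and 0.29 (adjusted p = 0.000149 and 0.00192), in the same order. E2F2, an activating E2F, gave -0.73 and -0.82 (adjusted p = 3.39e-05 and 1.33e-05), and E2F5 -0.63 and -0.61 (adjusted p = 2.67e-05 and 3.46e-05). None of the 22 was called with TMZ for either siRNA by limma, where 0 and 3 had an unadjusted p under 0.05 with control and BCL3 siRNA.

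Among 39 genes that act earlier in the cycle, at G1/S and in DNA replication, 22 fell and 1 rose under DMSO and 23 fell and 2 rose under TMZ, with median log2 fold changes of -0.25 and -0.24, against -0.09 and -0.16 for the 35 mitotic genes. MCM6, a subunit of the replicative helicase, had 9.48, 9.38 and 9.48 on the siBCL3 TMZ arrays, against 10.08, 10.12 and 10.03 on the siCtrl TMZ arrays. It had 9.78, 9.73 and 9.70 on the siBCL3 DMSO arrays, against 10.32, 10.29 and 10.21 on the siCtrl DMSO arrays. The siBCL3 arrays were all lower, and MCM6 fell by 0.63 under TMZ and 0.54 under DMSO (adjusted p = 3.12e-06 and 1.24e-05). With TMZ it fell by 0.29 after BCL3 siRNA (adjusted p = 0.034), the only gene of this list called in a TMZ comparison within 1 siRNA. CDC25A and E2F2, above, are also on this list.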

How the data were processed

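Illumina bead arrays of 12 U87 samples (4 groups of 3) gave 2 deposited tables. The authors deposited raw probe intensities with detection p-values, per the file headers, and a second table of normalized intensities whose method is not given in the sources used here. All 12 sample columns were matched by title, and 0 columns were left unmatched. Of 47320 probes, 30112 have 1 gene symbol, 8 several and 17200 none. Background was removed from the raw intensities by neqc, which read the level of the negative controls off the detection p-values, then an offset of 16 was added and values were quantile-normalized and taken to log2 (limma 3.58.1, R 4.3.3). A probe was kept where its detection p was under 0.01 on 3 or more of the 12 arrays, the brightest kept probe stood for each of 10686 genes, and 4 group means were fitted over all 12 arrays with lmFit and eBayes (8 residual degrees of freedom). P-values were adjusted by Benjamini-Hochberg over all genes, with a threshold of 0.05. With 3 arrays a group, their number limits the precision. Further probes were read from the same fit over all 18105 kept probes. The fit was also run on simulated data with independent noise, which cannot test the normalization or a response as wide as that seen here. Promoters came from the RefSeq table of GRCh38.p14, and the first listed window of each member was read.

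The 35 members, the pathway lists and the alternatives were chosen with earlier results of these data known. The genes named are all members, BCL3, CDKN1A and, from each pathway list, called genes among the 2 with the lowest p in each direction. Alternatives changed the background step, offset, scaling, detection filter, probe choice, arrays in the fit, replicate block, moderation and array weights, used the authors' normalized intensities, or left out each array.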

Additional observations from a re-analysis of the deposited data

How the results depend on the processing

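Of 42 calls of members over all comparisons, followed through 1168 alternative values, 1027 kept direction and call, 140 kept direction and lost the call, and 1 turned: CKAP2 under DMSO, at 0.08 when probes were averaged. In the knockdown comparison under DMSO the 10 that fell became 21 under median scaling over all probes, and the 2 that rose became 4 without background correction, 0 under that scaling and 6 with the median of kept probes. Under TMZ the 17 that fell became 8 and 11 under these 2 scalings, and the 2 that rose became 0 under median scaling over all probes and 1 under cyclic loess. For TMZ with control siRNA the 2 that rose became 7 with normexp, 8 without background correction, 6 with offset 50, 8 with trend and robust moderation, 4 with array weights, 0 and 1 under the 2 scalings, 1 with averaged probes and 1 with only the 6 arrays compared. The counts of all genes that rose were, in the same order, 194, 234, 163, 211, 139, 14, 49, 55 and 31, against 50. For TMZ with BCL3 siRNA the 1 that rose became 2 with normexp, without background correction, with offset 50 and with robust moderation, and 0 with averaged probes, all probes or only the 6 arrays. Where 2 members rose, 120 to 151 of all genes did, against 64 in the main fit. Averaged over siRNAs the 8 that rose became 1 under median scaling over all probes, where 74 of all genes rose, against 290. Leaving out 1 array at a time gave 8 to 10 fallen and 1 to 2 risen under DMSO, 14 to 18 fallen and 0 to 2 risen under TMZ, 0 to 2 and 0 to 1 risen with TMZ for control and BCL3 siRNA, and 4 to 8 averaged. The counts of 0 for members that fell with TMZ and for the interaction stayed at 0 in every alternative run; over all genes the interaction had 1 call with normexp, without background correction, with offset 50, with robust moderation and without siCtrl DMSO array 3. Over all genes, the split of risen to fallen under DMSO was 2213 to 2149, against 340 to 4184 with median scaling over all probes and 3160 to 1696 with the median of kept probes. Under TMZ it was 1986 to 2155, against 1023 to 1708 and 2548 to 1759. For TMZ with control siRNA it was 50 to 42, against 14 to 33 with median scaling over all probes, and with BCL3 siRNA 64 to 49, against 89 to 3. That scaling moved the median of all genes to -0.21 under DMSO and to 0.12 for TMZ with BCL3 siRNA. The cause of these changes was not tested. The replicate numbers are not shown to pair arrays, since the 12 correlations of same-numbered deviations ran from -0.15 to 0.19 and 3 were above 0.1. With the replicate number as a block 3 calls were lost, CKAP2 (adjusted p = 0.0613), CENPE (adjusted p = 0.0741) and CDC25C averaged over siRNAs (adjusted p = 0.0632), and 1 was gained, ECT2 averaged over siRNAs (adjusted p = 0.0473). In all, 102 alternative values passed the threshold where the reported value had not, most often for ECT2 averaged over siRNAs (10), BUB1 under TMZ (9) and HMMR under DMSO (9). MKI67, near the background, kept its calls with log2 fold changes of -1.33 to -0.47 under DMSO and -1.21 to -0.48 under TMZ.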
